A study of Mus musculus with 9 samples.

Results

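10 genes of the epidermal growth factor (EGF) system were followed in mouse colon organoids. They were 6 ligand genes (Areg, Ereg, Hbegf, Btc, Epgn and Tgfa), 3 receptor genes (Egfr, Erbb2 and Erbb3) and Errfi1, the gene of an inhibitor that binds the receptors. The members were taken by name from the 48795 genes in the table. The rule uses no measured value, but the members were chosen with earlier results of these data known. Organoids are epithelial cultures grown from isolated crypts, here of the colon of C57BL/6 mice. WT organoids came from wild-type littermates and AHR KO organoids from mice with a floxed Ahr allele and Cre driven by the Villin promoter, which is active in intestinal epithelium. Ahr encodes the aryl hydrocarbon receptor (AHR), a transcription factor that is switched on by small ligands. The culture medium, WENR, held Wnt-3A, Noggin, R-spondin and EGF itself and favours stem cells, so EGF protein was supplied to every group. The organoids received the solvent DMSO or 5 nM FICZ, a high-affinity AHR ligand, for 4 h. The groups were WT DMSO (n = 2, replicates 2 and 3), WT FICZ (n = 3, replicates 1, 2 and 3), AHR KO DMSO (n = 2, replicates 1 and 3) and AHR KO FICZ (n = 2, replicates 1 and 3). The methods of the study speak of biological replicates and the labels do not name the animals, so the p-values measure the spread between these libraries.

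The ligands of the EGF family are made as membrane-anchored precursors that proteases of the ADAM family cut free. They bind ErbB receptor tyrosine kinases, which pair up and signal through RAS and the MAP kinases and through PI3K and AKT. Areg and Tgfa proteins bind EGFR, while those of Ereg, Hbegf and Btc also bind ErbB4. ErbB2 has no known soluble ligand and serves as a partner of the other receptors, and ErbB3 has little kinase activity of its own and works in pairs. In the intestine the pathway is known for driving division of crypt cells and for repair after injury.

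Ahr itself was not lower in the libraries labelled AHR KO. Its normalised read count was 787 and 858 in WT DMSO, 791, 798 and 783 in WT FICZ, 1404 and 1346 in AHR KO DMSO and 1443 and 1387 in AHR KO FICZ. A count over the whole gene also takes reads from a transcript that lacks the deleted stretch, so it does not check the deletion. Cyp1b1, a classical AHR target, had 1632 and 1078 normalised reads in WT DMSO, between 8898 and 10600 in WT FICZ, 34.5 and 25.4 in AHR KO DMSO and 137 and 222 in AHR KO FICZ. Every direction given below for AHR KO rests on the labels of these libraries. Summed normalised counts ranged from 23177058 to 25033827 per library, and libraries of 1 group correlated across genes at r = 0.986 to 0.991. Of the epithelial markers, all 9 were detected, with summed levels of 331708 to 375490. Ptprc and Lyz2 were at 0 in all 9 libraries, and the endothelial and muscle lists summed to at most 5.27 and 3.31. Of the 6 fibroblast markers only Pdgfrb was above the filter (15.3 to 110), and of the 6 immune markers only Cd68 (475 to 712). In bulk samples such as these, fewer cells of a type and less RNA per cell cannot be told apart.

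Levels were compared between genes per kb of the longest annotated transcript. Areg was the highest of the ligands, with a mean over the 9 libraries of 1330 normalised reads per kb (range 951 to 1840). Errfi1 followed at 1170 (1010 to 1310), Hbegf at 604, Erbb3 at 564, Erbb2 at 404, Ereg at 364, Egfr at 358, Tgfa at 340 and Btc at 215. Epgn, the gene of epigen, was near the detection limit at 0.759 per kb, with normalised counts of 0 to 5.46, and was not tested. Among neighbours in this order, Errfi1 stood above Hbegf, Erbb3 above Erbb2, Tgfa above Btc and Btc above Epgn in 9 of 9 libraries. Areg and Errfi1 changed places between libraries, as did the genes from Hbegf to Erbb3 and from Erbb2 through Ereg and Egfr to Tgfa. Egf, outside the 10 members, had 0.551 per kb and Erbb4 was listed at 0 in every library. The 9 other members thus had 572 normalised reads or more in every library and were tested. Some members overlap other genes. Egfr shares 15272 bases with the antisense gene Egfros, Tgfa 2360 with Gm43917, Errfi1 1031 with 1700045H11Rik, and Ereg 152 with Gm19610. The library kit keeps strand, but whether the counting used it is not stated in the sources used here.

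**Figure D1:**
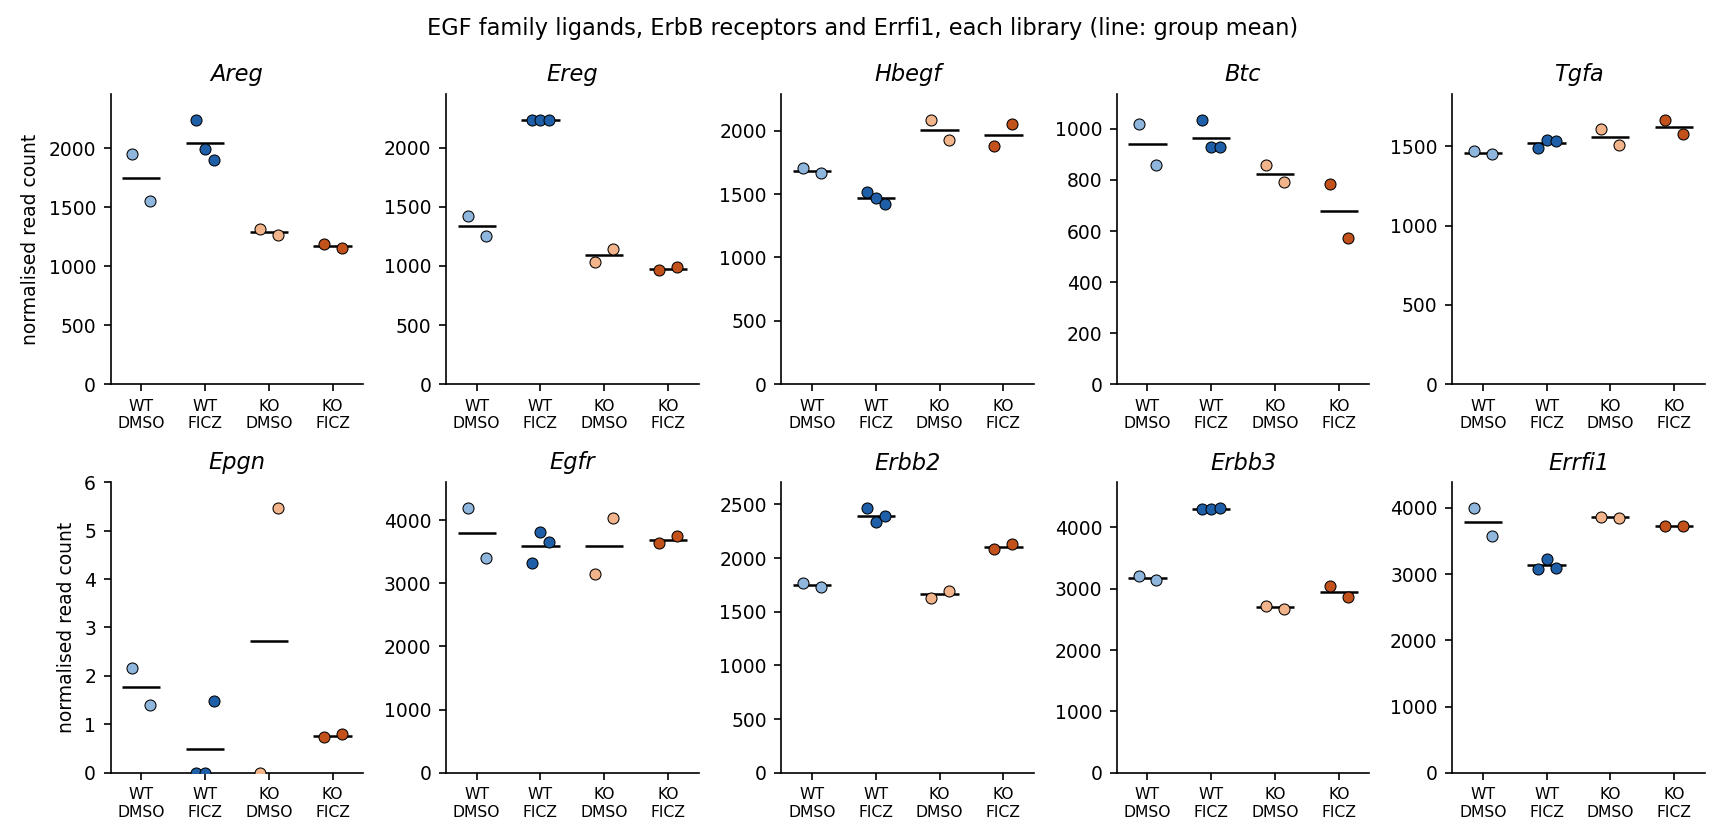
Normalised read count of each of the 10 members in each library by group, with dots for libraries and a line for the group mean; every vertical axis starts at 0. Ereg and Erbb3 in WT FICZ sat above every other library, Hbegf was higher in the AHR KO libraries, and Egfr overlapped between all groups.

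The first question was how the ligand genes respond to FICZ when AHR is present. Ereg, the gene of epiregulin, rose from 1421 and 1251 normalised reads in WT DMSO to 2233, 2234 and 2232 in WT FICZ. The groups were far apart, and the group means were 1336 ± 120 (SD, n = 2) and 2233 ± 0.675 (SD, n = 3). The SD of so few libraries is a rough estimate, and the SE below uses a spread shared by all groups. On the log2 scale the increase was 0.74 (SE 0.0691, 95% confidence interval 0.59 to 0.90), or 1.67-fold, with an adjusted p = 0.000163 in limma. Across all 12741 genes tested, 30.8% were called in this contrast (adjusted p under 0.05), 15.1% as higher and 15.7% as lower. In size the Ereg change exceeded that of 94.4% of the genes tested.

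Areg, the gene of amphiregulin and a neighbour of Ereg, did not pass the test. It had 1947 and 1550.3 normalised reads in WT DMSO and 2239, 1997 and 1896 in WT FICZ, and the groups overlapped through WT DMSO replicate 2. The log2 difference was 0.23 (SE 0.0973, adjusted p = 0.098). Without WT DMSO replicate 2 it was 0.40 with an adjusted p = 0.0255, and with the trend on GC content and transcript length removed it was 0.32 with an adjusted p = 0.0481. Within each library the ratio of Ereg to Areg was 0.73 and 0.807 in WT DMSO and 0.997, 1.12 and 1.18 in WT FICZ, against 0.79 to 0.906 in the AHR KO libraries.

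Hbegf, the gene of heparin-binding EGF-like growth factor, moved the other way. It had 1703 and 1665 normalised reads in WT DMSO and 1514, 1468 and 1419.7 in WT FICZ, so that every FICZ library was lower. The log2 change was -0.20 (SE 0.0619, adjusted p = 0.0341). That call was lost without WT DMSO replicate 2 (adjusted p = 0.164), WT DMSO replicate 3 (0.105) or WT FICZ replicate 3 (0.101), and with quantile normalization (0.0857) or no filter on low values (0.0584). The 2 remaining ligands gave no call. Btc, the gene of betacellulin, had 1021 and 859 normalised reads in WT DMSO and 1035, 928 and 928 in WT FICZ, a log2 difference of 0.04 (95% confidence interval -0.24 to 0.32). Tgfa had 1469 and 1450.1 against 1492, 1541 and 1532, a difference of 0.06 with an interval of -0.06 to 0.18.

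Both partner receptors rose with FICZ in WT organoids. Erbb3 went from 3205 and 3139.7 normalised reads in WT DMSO to 4307, 4294 and 4311 in WT FICZ, a log2 change of 0.44 (SE 0.047, adjusted p = 0.000271) and 1.36-fold. Erbb2 went from 1768 and 1734 to 2462, 2333 and 2388, a log2 change of 0.45 (SE 0.0505, adjusted p = 0.000319) and 1.37-fold. For both genes the 3 FICZ libraries lay above the 2 DMSO libraries with a wide gap. Egfr, whose product binds the ligands tested here, gave no call. Its 4183 and 3395 normalised reads in WT DMSO overlapped with the 3315, 3816 and 3651 of WT FICZ, and the log2 difference was -0.07 with an interval of -0.32 to 0.18.

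Errfi1, whose product MIG6 blocks the kinase domain of EGFR and its relatives, fell. It had 3991 and 3576 normalised reads in WT DMSO and 3080.5, 3229.7 and 3093 in WT FICZ, all lower, with a log2 change of -0.27 (SE 0.0554, adjusted p = 0.00539). Without WT DMSO replicate 2 the change was -0.19 with an adjusted p = 0.0702. In all, 5 of the 9 tested members (55.6%) were called in WT, 3 higher and 2 lower, beside 30.8% of all genes (15.1% higher and 15.7% lower). Their median log2 change was 0.06 and their median absolute change 0.23, against -0.01 and 0.21 over all genes tested. Ereg, Erbb2 and Erbb3 were called under all alternatives tried, but the Erbb2 change was 0.225 (adjusted p = 0.0091) with the trend on GC content and length removed.

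The second question was whether these genes respond to FICZ in the libraries labelled AHR KO. Here 1 of 9 tested members (11.1%) was called, Erbb2, beside 19.7% of all genes (10.2% higher and 9.48% lower). Erbb2 had 1629 and 1692 normalised reads in AHR KO DMSO and 2087 and 2127 in AHR KO FICZ, a log2 change of 0.34 (SE 0.0554, adjusted p = 0.00376) and 1.27-fold. With the trend on GC content and length removed, the Erbb2 change was 0.10 with an adjusted p = 0.296. It was 0.32 without AHR KO DMSO replicate 1, with an adjusted p = 0.0504. The same correction lowered the number of all genes called in AHR KO from 2509 to 670. Of the members, Erbb2 had the highest GC content over its transcript (57.3%), and Btc and Ereg the lowest (37.7% and 39.2%).

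Ereg did not rise in AHR KO. It had 1036 and 1147 normalised reads in AHR KO DMSO and 966 and 990 in AHR KO FICZ, a log2 difference of -0.16 (95% confidence interval -0.32 to 0.01, adjusted p = 0.174). Erbb3 had 2721 and 2676 against 3044 and 2862, a difference of 0.13 (interval 0.01 to 0.24, adjusted p = 0.105). Areg had 1312 and 1266 against 1191 and 1155, and Btc 860 and 790.2 against 784 and 572. In both ligand genes the FICZ libraries were the lower ones, with log2 differences of -0.14 (adjusted p = 0.406) and -0.30 (adjusted p = 0.16). Btc was called without AHR KO FICZ replicate 1, at -0.53 with an adjusted p = 0.0312. The last 4 members gave no call. Hbegf had 2085 and 1927 normalised reads in AHR KO DMSO and 1881 and 2054 in AHR KO FICZ, and Tgfa 1610 and 1510.5 against 1666 and 1578. Egfr had 3151 and 4027 against 3632 and 3745, and Errfi1 3862 and 3854 against 3722 and 3731. These 4 genes differed by -0.05 to 0.06 on the log2 scale, with intervals between -0.22 and 0.32, and none passed the test.

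**Figure D2:**
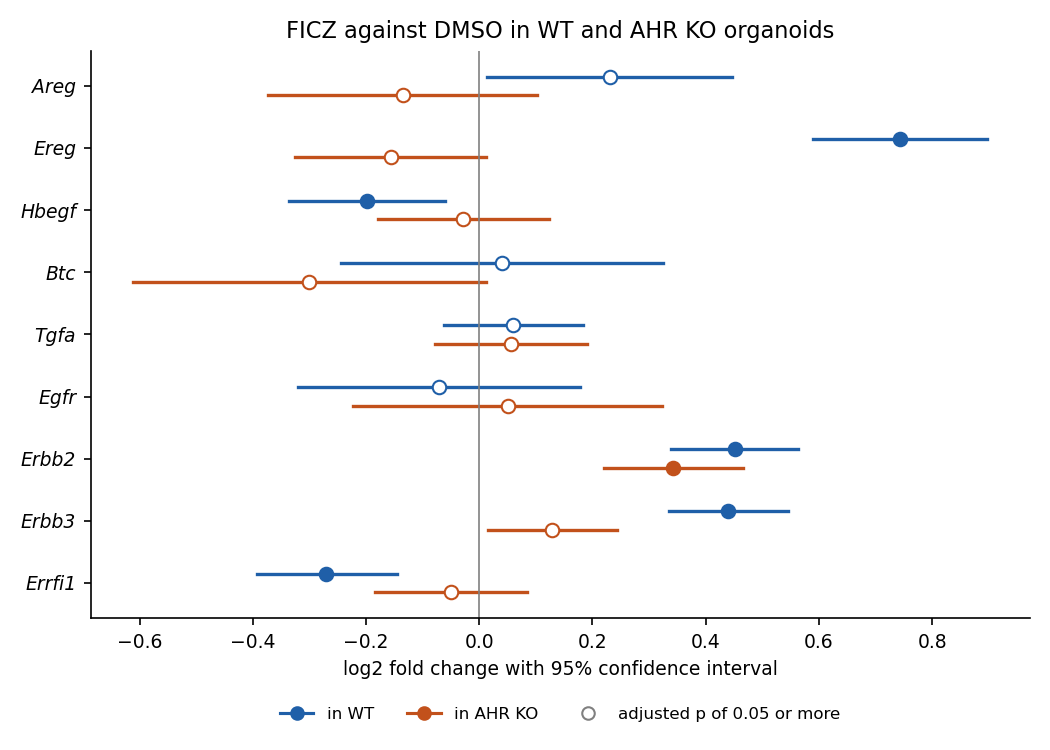
Log2 fold change of FICZ against DMSO for the 9 tested members in WT (blue) and in AHR KO (orange), with 95% confidence intervals from limma; filled dots have an adjusted p under 0.05. The Ereg intervals lie apart, from 0.59 to 0.90 in WT and from -0.32 to 0.01 in AHR KO. Those of Erbb3 also lie apart, from 0.335 to 0.545 and from 0.015 to 0.244, though its interaction was not called. Those of Tgfa and Erbb2 overlap.

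The difference between the 2 responses was tested as an interaction, in which a value above 0 means a more positive change in WT than in AHR KO. Ereg was the 1 member called, with a difference of 0.90 on the log2 scale (SE 0.102, 95% confidence interval 0.67 to 1.13, adjusted p = 0.00362). Only 0.447% of all genes were called in this contrast, 0.377% with a higher change in WT and 0.0706% with a lower one. Ereg passed under every alternative tried. The Erbb3 difference was 0.31 (SE 0.0698), with an unadjusted p = 0.0012 and an adjusted p = 0.133. For Areg it was 0.37 (interval 0.04 to 0.69, adjusted p = 0.578), for Errfi1 -0.22 (interval -0.40 to -0.04, adjusted p = 0.533) and for Erbb2 0.11 (interval -0.06 to 0.28, adjusted p = 0.842). A smaller or no change of these genes in AHR KO was therefore not shown. For Tgfa the difference was 0.00 with an interval of -0.18 to 0.19.

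The remaining question was how the genotypes differ. Under DMSO, 4 of 9 tested members (44.4%) were called in AHR KO against WT, beside 9.05% of all genes (4.21% higher and 4.83% lower). Areg was lower in AHR KO by 0.43 on the log2 scale (0.742 times the WT level, adjusted p = 0.0327), Ereg was 0.818 times the WT level (log2 -0.29, adjusted p = 0.0399) and Erbb3 0.851 times (log2 -0.23, adjusted p = 0.0197). Hbegf was 1.19-fold higher (log2 0.25, adjusted p = 0.0465). In each of these genes the 2 AHR KO libraries lay outside the range of the 2 WT libraries, as the values above show. None of the 4 calls held with every library left out in turn. Without WT DMSO replicate 2, AHR KO DMSO replicate 1 or AHR KO DMSO replicate 3 no member was called, and 2 were called without WT DMSO replicate 3, WT FICZ replicate 1 or WT FICZ replicate 3. Without a filter on low values 1 member was called, and with quantile normalization 2. Directions were the same with each library left out, with log2 ranges of -0.60 to -0.27 for Areg, -0.38 to -0.20 for Ereg, -0.25 to -0.22 for Erbb3 and 0.19 to 0.31 for Hbegf.

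Under FICZ, 7 of 9 tested members (77.8%) were called in AHR KO against WT, beside 20% of all genes (9.48% higher and 10.5% lower). The median log2 difference over the members was -0.18 and their median absolute difference 0.42, against 0.00 and 0.16 over all genes. The FICZ libraries of each genotype entered both this contrast and those above, so the 2 sets of values are not independent. Ereg in AHR KO was 0.438 times the WT level (log2 -1.19, SE 0.0691, adjusted p = 3.59e-06), and Areg 0.576 times (log2 -0.80, SE 0.0973, adjusted p = 0.000299). Erbb3 was 0.686 times the WT level (log2 -0.54, SE 0.047, adjusted p = 3.91e-05). Hbegf was 1.34-fold higher (log2 0.42, SE 0.0619, adjusted p = 0.001), with 1881 and 2054 normalised reads in AHR KO FICZ and 1419.7 to 1514 in WT FICZ. These 4 calls held under every alternative tried.

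The other 3 calls under FICZ were lost when single libraries were left out. Btc was 0.696 times the WT level (log2 -0.52, adjusted p = 0.0167), but it was -0.30 with an adjusted p = 0.15 without AHR KO FICZ replicate 3, and not called without WT FICZ replicate 1 (log2 -0.47, adjusted p = 0.0542). Erbb2 was 0.88 times the WT level (log2 -0.18, adjusted p = 0.0282) and lost its call without WT FICZ replicate 1 (adjusted p = 0.0843), WT FICZ replicate 3 (0.0745), AHR KO FICZ replicate 1 (0.117) or AHR KO FICZ replicate 3 (0.0906), with quantile normalization (0.0904), and in a fit to those groups alone (0.0717). With each of those libraries left out, the Erbb2 difference was between -0.16 and -0.20. Errfi1 was 1.19-fold higher (log2 0.25, adjusted p = 0.0104), with 3722 and 3731 normalised reads in AHR KO FICZ, and lost its call without AHR KO FICZ replicate 3 (adjusted p = 0.0634), with the difference still at 0.25. Tgfa and Egfr were not called in either genotype contrast. Their log2 differences under FICZ were 0.09 (interval -0.03 to 0.21) and 0.04 (interval -0.21 to 0.29).

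**Figure D3:**
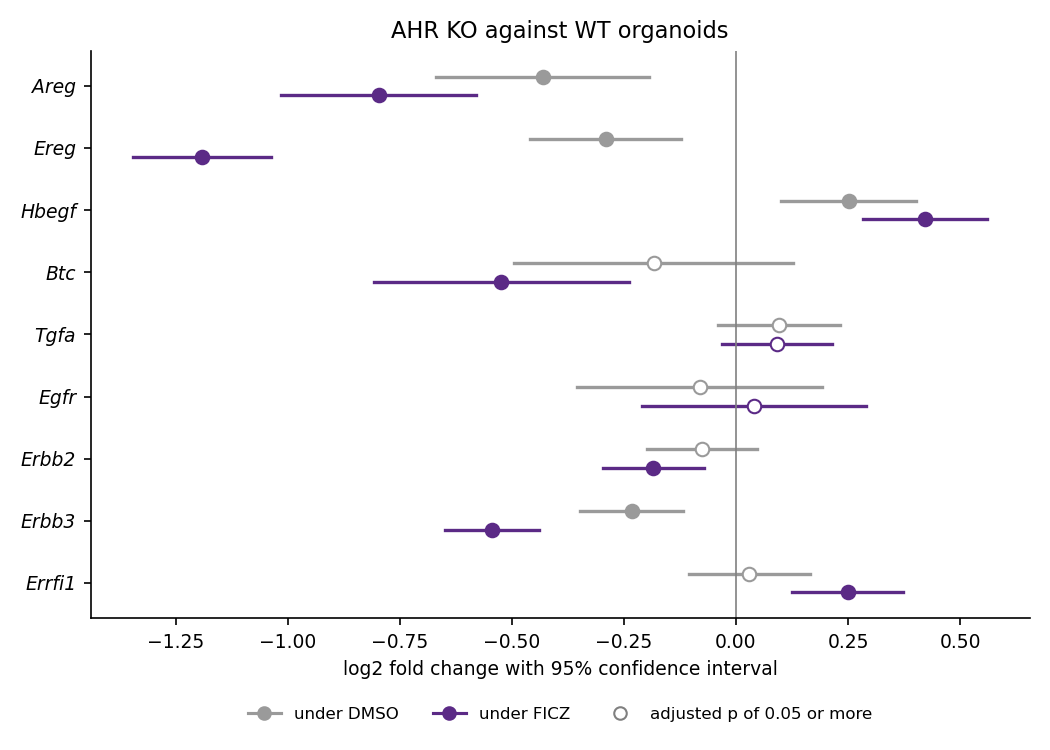
Log2 fold change of AHR KO against WT for the 9 tested members under DMSO (grey) and under FICZ (purple), with 95% confidence intervals from limma; filled dots have an adjusted p under 0.05. Areg, Ereg and Erbb3 lay below 0 and Hbegf above 0 in both treatments, and the Ereg interval under FICZ, -1.34 to -1.04, was the lowest of the 9.

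Some of the 9 epithelial markers moved with genotype as well. Under FICZ 5 of the 9 were called, 1 higher and 4 lower, and under DMSO 4, all lower, beside 20% and 9.05% of all genes. Under FICZ, Epcam was lower in AHR KO by 0.46 on the log2 scale, Krt20 by 0.95, Cdx2 by 1.08 and Lgals4 by 0.46 (limma, adjusted p between 2.23e-05 and 0.00207), while Krt18 was higher by 0.38. Cdh1 (0.10), Krt8 (0.05), Krt19 (-0.15) and Vil1 (-0.14) were not called in either treatment, with log2 differences under FICZ in brackets. Under DMSO, Epcam was lower by 0.43 (adjusted p = 0.00846), Krt20 by 0.72 (0.0281), Cdx2 by 0.43 (0.0191), Lgals4 by 0.34 (0.0266) and the tuft cell marker Dclk1 by 3.01 (0.0102). Cdx2, which encodes an intestinal transcription factor, also rose with FICZ in WT, by 0.80, as did Lgals4, by 0.24 (adjusted p = 0.0305). The Lgals4 call was lost with the GC and length trend removed (adjusted p = 0.173) and without WT DMSO replicate 2 or 3, AHR KO DMSO replicate 1 or 3, or WT FICZ replicate 2 or 3 (0.0501 to 0.169). These were 2 of the 9 epithelial markers. The summed level of the 4 secretory markers was 89.9 to 182 in the AHR KO libraries and 98.1 to 516 in the WT libraries. Pdgfrb was lower in AHR KO by 1.6 under DMSO (adjusted p = 0.0155) and by 1.55 under FICZ. Each of these marker calls under DMSO was lost without at least 1 of the 4 DMSO libraries, with the direction kept (adjusted p from 0.059 to 0.187 in those fits). The part of these markers in the results on the EGF family was not tested.

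The make-up of the ligand transcripts was described per kb, as the share of each gene in the sum over the 6 ligands. That sum was 2690 to 3110 normalised reads per kb in WT DMSO, 3160 to 3490 in WT FICZ, 2520 to 2620 in AHR KO DMSO and 2390 to 2430 in AHR KO FICZ. Areg supplied the most in all libraries, from 39.7 to 52.7%. The share of Ereg was 11 to 11.3% in WT DMSO, 15.5 to 17.1% in WT FICZ, 9.57 to 11% in AHR KO DMSO and 9.64 to 10% in AHR KO FICZ. Hbegf went the other way, with 18.9 to 21.4%, 15 to 15.6%, 26.5 to 27.5% and 26.8 to 29.7% in the same groups. Among the 3 receptors, Erbb3 held 46 to 46.7% of the sum in WT FICZ and 37.5 to 43.5% elsewhere, and Egfr 21.2 to 24.1% in WT FICZ and 27.7 to 33.5% elsewhere. The receptor sum was 1530 to 1550 per kb in WT FICZ and 1090 to 1300 in the other groups. These shares are descriptions and follow from the values tested above.

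**Figure D4:**
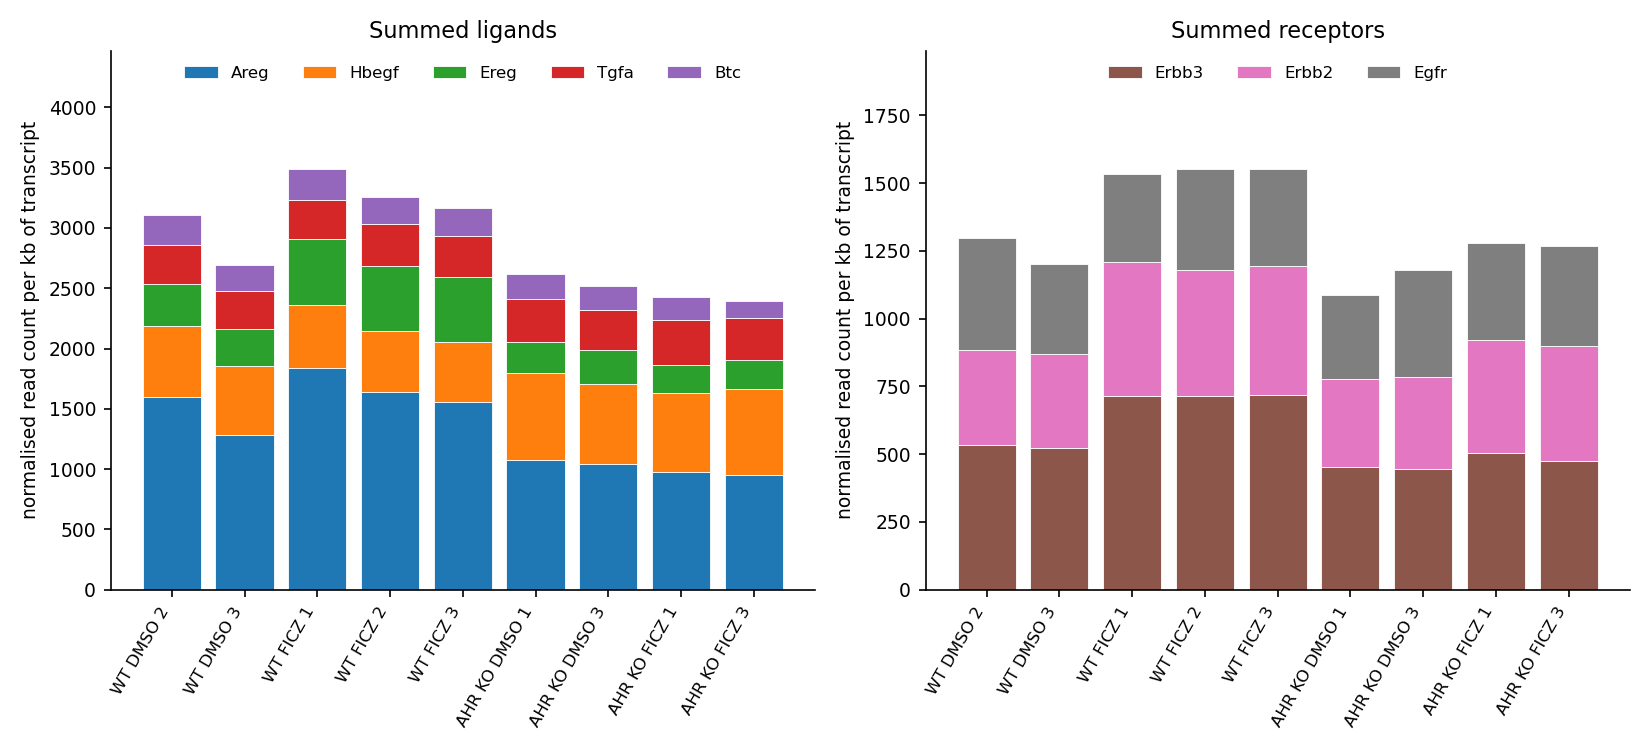
Normalised read counts per kb of transcript, stacked over the ligand genes (left, Epgn left out as it is near 0) and the 3 receptor genes (right), 1 bar per library. The bars of WT FICZ are the tallest in both panels, and Areg is the largest ligand segment in every library.

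In 4 of the 6 ligand genes position is shared. Epgn (chr5:91027464-91035215), Ereg (chr5:91074622-91093646) and Areg (chr5:91139599-91148432) lie on the plus strand and Btc (chr5:91357261-91402994) on the minus strand of GRCm38, within 376 kb. Ereg ends 46 kb before Areg begins, and Areg ends 209 kb before the annotated end of Btc. Of these neighbours Epgn was near 0, Ereg rose with FICZ in WT, and Areg and Btc did not pass that test. Within 500 kb on either side the annotation holds 12 further protein-coding genes, of which 7 were tested. They were looked at for their position, after results were known. Under FICZ, the chemokine genes Cxcl5 (log2 1.32, adjusted p = 4.63e-06), Cxcl2 (1.84, 0.00013), Cxcl3 (2.75, 0.00207) and Cxcl1 (1.49, 0.0135) were higher in AHR KO, opposite in sign to the ligand genes beside them. Of all genes, 20% were called in that contrast. Cxcl5 (1.01, adjusted p = 0.00013), Cxcl2 (0.96, 0.0214) and Cxcl3 (1.95, 0.0366) were also higher in AHR KO under DMSO. The Cxcl2 and Cxcl3 calls under DMSO were lost under some alternatives. With FICZ in WT, Cxcl5 (-0.36, 0.00748) and Cxcl2 (-0.62, 0.0378) were lower, and both calls were lost with the GC and length trend removed. Cxcl3 was low, with 3.98 normalised reads in its lowest library. The Cxcl1 call was lost without AHR KO FICZ replicate 1 (log2 1.08, adjusted p = 0.12). Parm1, on the far side of Btc, was lower in AHR KO under FICZ (log2 -0.67, adjusted p = 0.001), and Rassf6 and Mthfd2l, the gene next to Epgn, were not called. Most other members lie apart, Tgfa at chr6:86195223-86275719, Erbb3 at chr10:128567523-128589652 and Errfi1 at chr4:150853919-150868892, except that Egfr (chr11:16752203-16918158) and Erbb2 (chr11:98412470-98437716) share chromosome 11.

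Promoters were read from RefSeq sequence of GRCm38.p6 as the 250 bases before to the 50 bases after a transcript start. Of the 10 members, 7 had an entry that was used here, with 8 starts in all. Ereg, Erbb3 and Hbegf had no entry used here. The letters GCGTG, the core of the sites that AHR binds with its partner ARNT, were searched on both strands. They occurred in 4 of the 8 promoters, those of Btc, Tgfa, Erbb2 and the downstream start of Errfi1, and in 32.4% of all 32851 promoters of the same length. The letters TGACGTCA, a cyclic AMP response element that reads alike on both strands, occurred in 2 of the 8, Areg and Errfi1, and in 1.79% of all promoters. The AP-1 letters TGANTCA occurred in none of the 8 and in 7.81% of all. The promoters of 4 genes are shown because these genes differed by genotype under FICZ. Each is written in the direction of transcription, with both the GCGTG and the TGACGTCA matches in capitals, which do not overlap here. A match is a description of the sequence and no evidence of binding.
Areg, chr5:91139349-91139648, plus strand: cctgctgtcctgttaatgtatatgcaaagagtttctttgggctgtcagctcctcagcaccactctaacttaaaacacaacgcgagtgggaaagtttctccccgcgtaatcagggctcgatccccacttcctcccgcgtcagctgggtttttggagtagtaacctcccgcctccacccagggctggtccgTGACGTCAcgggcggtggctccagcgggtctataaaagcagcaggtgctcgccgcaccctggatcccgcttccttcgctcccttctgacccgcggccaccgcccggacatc
Btc, chr5:91402945-91403244, minus strand: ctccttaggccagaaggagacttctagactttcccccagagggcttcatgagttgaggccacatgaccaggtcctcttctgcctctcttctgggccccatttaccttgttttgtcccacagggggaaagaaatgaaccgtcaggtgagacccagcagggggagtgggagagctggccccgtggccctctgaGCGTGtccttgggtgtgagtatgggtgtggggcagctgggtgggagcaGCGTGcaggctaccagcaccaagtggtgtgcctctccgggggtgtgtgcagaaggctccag
Erbb2, chr11:98412234-98412533, plus strand: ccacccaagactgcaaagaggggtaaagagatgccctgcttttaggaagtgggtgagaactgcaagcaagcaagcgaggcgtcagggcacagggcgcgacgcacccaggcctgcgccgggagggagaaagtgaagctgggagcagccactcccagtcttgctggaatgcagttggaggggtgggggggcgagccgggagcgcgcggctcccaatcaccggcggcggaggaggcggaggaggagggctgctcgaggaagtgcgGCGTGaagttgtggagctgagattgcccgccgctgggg
Errfi1, chr4:150854820-150855119, plus strand: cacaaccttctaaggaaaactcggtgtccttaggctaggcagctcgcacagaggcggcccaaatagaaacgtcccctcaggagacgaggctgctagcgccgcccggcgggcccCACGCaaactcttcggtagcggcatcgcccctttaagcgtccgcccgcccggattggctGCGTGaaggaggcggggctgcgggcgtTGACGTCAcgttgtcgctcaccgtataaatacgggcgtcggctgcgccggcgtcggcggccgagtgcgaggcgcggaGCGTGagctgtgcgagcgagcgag
In Areg the TGACGTCA match begins 61 bases before the start and in Errfi1 51 bases before it. The GCGTG matches begin at -59 and -11 in Btc, at 13 in Erbb2, and at -137 (on the opposite strand), -78 and 27 in Errfi1, counted from the start as 1.

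The rest of the pathway was followed with a list of 70 genes chosen by role, of which 63 passed the filter. With FICZ in WT, 20 of the 63 (31.7%) were called, 9 higher and 11 lower, close to the 30.8% of all genes. Their median log2 change was -0.01, as over all genes. Among the genes for shedding and trafficking of ligands, 5 of 9 were called. Rhbdf1 (log2 0.76, adjusted p = 0.00159), Rhbdf2 (0.50, 0.000708) and Frmd8 (0.64, 0.00209) rose. Their products, the inactive rhomboids and a protein that stabilises them, escort the sheddase ADAM17. Adam17 itself differed by -0.05 (adjusted p = 0.582), and Cnih4, the gene of a cargo receptor, fell (-0.37, adjusted p = 0.0182). Cnih4 lost its call with the GC and length trend removed (adjusted p = 0.164) and without WT DMSO replicate 2 (0.143) or WT FICZ replicate 3 (0.0551).

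Of 21 inhibitors, adaptors and turnover genes, 6 (28.6%) were called with FICZ in WT, 2 higher and 4 lower, beside 30.8% of all genes. Cbl, the gene of a ubiquitin ligase that sends EGFR to degradation, rose (log2 0.45, adjusted p = 0.000436). Lrig1, which encodes a membrane protein that restrains ErbB receptors and marks intestinal stem cells, fell (-0.35, adjusted p = 0.000679), as did Eps8 (-0.43, adjusted p = 0.000937), the gene of an EGFR substrate. Among RAS and MAP kinase genes Map2k2 rose (0.60, adjusted p = 0.000414). With the GC and length trend removed, Map2k2 was at 0.24 and Rhbdf2 at 0.23. Of 8 genes known as ERK output, 2 (25%) were called, with Ier3 higher (0.19, adjusted p = 0.0426) and Myc lower (-0.31, adjusted p = 0.00525). Of 9 ERK feedback inhibitors 2 (22.2%) were called, 1 in each direction, and Dusp6 differed by 0.06 (adjusted p = 0.426). Of the 10 genes named by size, all but Cnih4 kept their call with each library left out.

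In AHR KO, 12 of the 63 (19%) were called with FICZ, 5 higher and 7 lower, beside 19.7% of all genes. Rhbdf1 (log2 0.71, adjusted p = 0.0068), Rhbdf2 (0.61, 0.00178), Frmd8 (0.60, 0.00854) and Map2k2 (0.74, 0.0014) rose here too. Of the 10 named by size in this contrast, Map2k2 and Rhbdf2 alone were called under every alternative, and with the GC and length trend removed they were at 0.38 and 0.32. Frmd8, for instance, lost its call with the GC and length trend removed (adjusted p = 0.0867). In the interaction 1 of the 63 was called, Lrig1, by -0.39 (adjusted p = 0.0456), beside 0.447% of all genes. Lrig1 had a log2 difference of 0.05 with FICZ in AHR KO. Its interaction call was lost in 8 of the 9 fits that left out a library, with adjusted p-values from 0.0742 to 0.258.

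**Figure D5:**
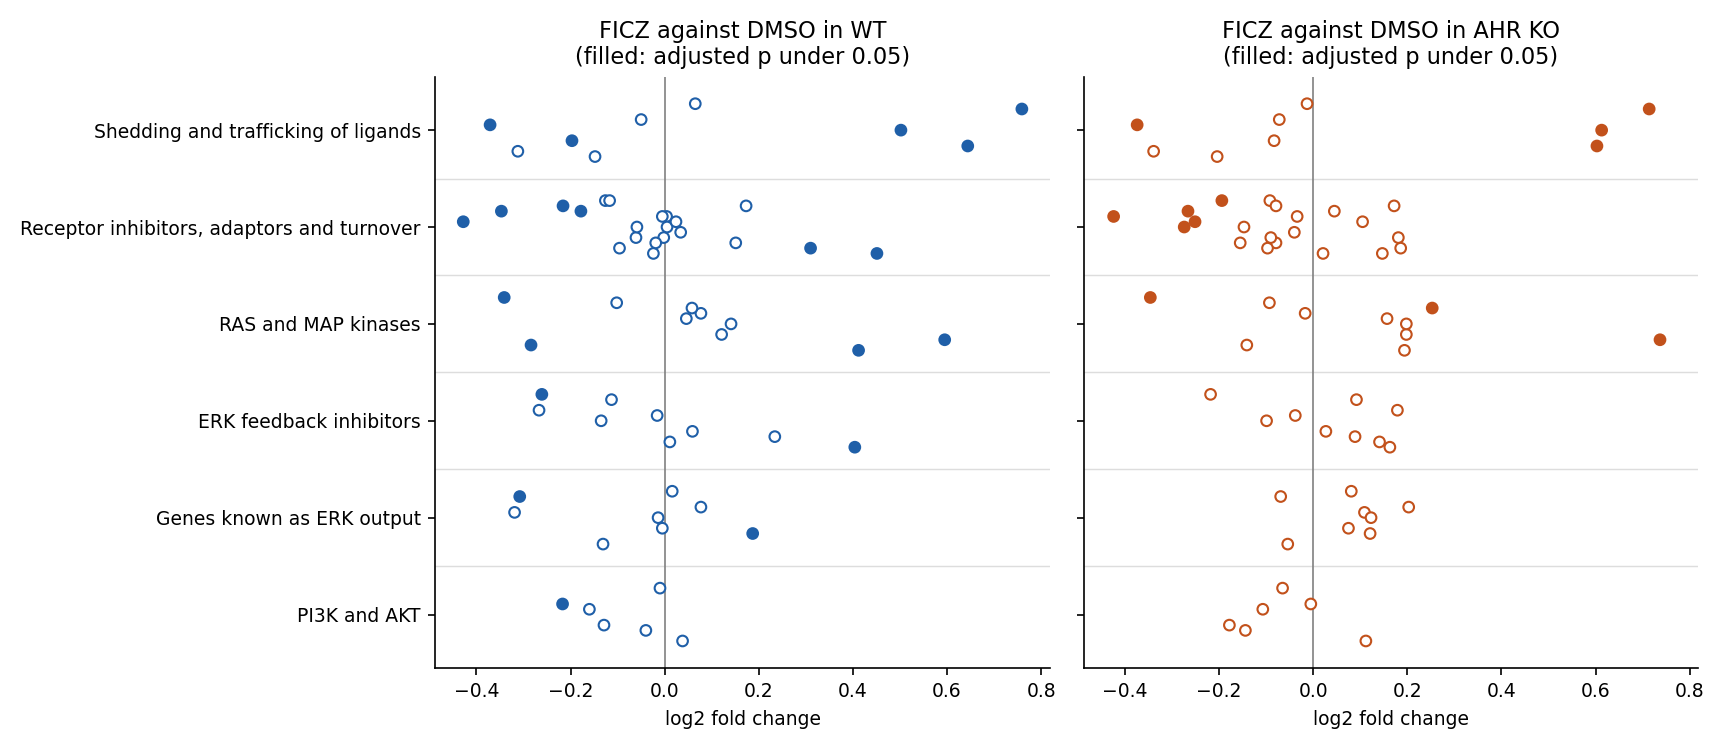
Log2 fold change of FICZ against DMSO for the 63 tested genes of the pathway list by role, in WT (left) and in AHR KO (right); filled dots have an adjusted p under 0.05 in limma. In both panels 3 shedding genes (Rhbdf1, Rhbdf2 and Frmd8) stand to the right, at 0.50 or above, while most genes known as ERK output lie near 0.

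Between genotypes, 7 of the 63 (11.1%) were called under DMSO, 3 higher and 4 lower, near the 9.05% of all genes. Under FICZ 20 (31.7%) were called, 11 higher and 9 lower, beside 20% of all genes. Ccnd1, the gene of cyclin D1, was 1.52-fold higher in AHR KO under DMSO (log2 0.60, adjusted p = 0.00056) and 1.6-fold higher under FICZ (0.68, adjusted p = 4.52e-05), and both calls held under every alternative. Under DMSO Socs5 (0.32, adjusted p = 0.0322) and Pik3cb (0.32, 0.0205) were higher too, and Fosl1 (-0.53, 0.0336), Mapk3 (-0.35, 0.0171), Pik3r1 (-0.34, 0.019) and Ier3 (-0.29, 0.0262) were lower. Each of these 6 calls was lost under at least 1 alternative. Under FICZ, Dusp5 (0.60, adjusted p = 0.0014), Socs5 (0.46, 0.00155), Lrig1 (0.42, 0.000162) and Adam9 (0.35, 0.00371) were also higher in AHR KO, and Ier3 was lower (-0.35, 0.00288). Dusp5 and Socs5 are known as inhibitors in this pathway, and Adam9 encodes a protease. These 5 calls held under every alternative too. Cblb (-0.34, adjusted p = 0.0453), Cnih4 (-0.33, 0.0412), Araf (-0.32, 0.0113) and Mapk3 (-0.29, 0.0131) were also lower in AHR KO. All 4 of these calls were lost without AHR KO FICZ replicate 3 (adjusted p from 0.0845 to 0.242), and those of Cblb and Cnih4 under further alternatives. Of the ERK output list, 3 of 8 were called under FICZ, 2 higher and 1 lower.

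Genes whose level followed a member most closely were ranked by Pearson r of log2 values over the 9 libraries, among the 10974 genes that averaged at least 50. The libraries fall into 4 groups, so these r values are a description and mostly carry differences between groups. For Ereg they were Pof1b (r = 0.994), Ptgs2 (0.992), Cpox (0.988), Rnf157 (0.984) and Ipmk (0.982). Ptgs2 encodes the inducible cyclooxygenase. For Areg they were Tcim (0.983), Me2 (0.981), Rhpn2 (0.98), Ap1s3 (0.976) and Ermp1 (0.972). Errfi1 was followed by Ppfibp1 (0.973) and Tnfrsf11b (0.968), and Tgfa by Abl2 (0.927). Within the family, Ereg was nearest to Erbb3 (r = 0.954) and then to Areg (0.918), and it ran opposite to Hbegf (-0.938). Egfr was unrelated to Areg and Ereg, with r = 0.03 and 0.01.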

How the data were processed

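RNA was sequenced from 9 libraries of organoids in 4 groups, whose labels gave the grouping. The authors deposited 1 table of normalised counts per gene, a signal that is never negative and not whole. The submitters' processing notes name RSEM 1.2.31, STAR 2.5.2a, DESeq2 1.16.1 and the build GRCm38, while the methods of the study name summarizeOverlaps; which of these made the table is not stated. The scaling varied slightly from gene to gene, so reads were not recovered and depth per gene is known only through the summed signal. Symbols and coordinates came from GENCODE M21, matched for 99.3% of the IDs.

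From there, log2(value + 1) of the 12741 genes averaging at least 10 was fitted in limma 3.58.1 (R 4.3.3, lmFit and eBayes with trend) with the 4 groups as coefficients. Changes of low genes are understated on that scale. P-values were two-sided and adjusted by Benjamini-Hochberg over all genes tested, and an adjusted p under 0.05 was a call. The script was tested on simulated data. Alternatives were other pseudocounts (0.1 and 10), filters and scalings, a replicate block, removal of a spline trend on transcript GC and length, and leaving out each library. Where that left a group with 1 library, it was assumed to vary like the other groups. Genes of the pathway list were named where called, up to 5 higher and 5 lower per contrast by size, besides Adam17, Dusp6 and Ier3 in WT, which were chosen after their values were seen. 1 gene that this rule names is not reported here. The members and lists were chosen with earlier results of these data known.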

Additional observations from a re-analysis of the deposited data

Results flagged for a closer look

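The FICZ response of Ereg differed between the genotypes. Its log2 change was 0.74 in WT and -0.16 in AHR KO, and the difference of 0.90 (SE 0.102) passed the limma interaction test with an adjusted p = 0.00362. The 3 WT FICZ libraries had 2232 to 2234 normalised reads and the 2 AHR KO FICZ libraries 966 and 990. Over the 22 alternatives the difference kept its direction and its call, with a range of 0.81 to 0.99 and adjusted p-values from 0.00272 to 0.0289. The groups hold 2 or 3 libraries, so single libraries were not tested for standing apart.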

How the results depend on the processing

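Each result was recomputed under up to 22 alternatives. For the members, 884 of 972 values kept direction and side of the threshold, 54 lost their call, 4 gained one and 30 turned direction, of which 0 were called. For the other genes named, 1161 of 1322 were unaltered in this sense and 161 lost their call. The median log2 difference of all genes stayed between -0.022 and 0.012. Groups of 2 or 3 libraries and the lack of read counts limit the precision.

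With the GC and length trend removed, 2336 of all genes were called with FICZ in WT and 670 in AHR KO, 0 members in AHR KO and 7 pathway genes in AHR KO. Without a filter on low values, 1 member and 4 pathway genes were called by genotype under DMSO and 0 pathway genes in the interaction. Quantile normalization gave 2 members by genotype under DMSO and 2 with FICZ in AHR KO. Fitting only the groups of a contrast gave 14 pathway genes by genotype under DMSO and 12 under FICZ. The cause of these shifts was not tested. Directions turned for Ereg with FICZ in AHR KO (0.059 with the GC and length trend removed), Errfi1 with FICZ in AHR KO (0.028 with that trend removed, 0.007 with quantile normalization) and the Tgfa interaction (-0.006 with quantile normalization).

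The labels share replicate numbers, but libraries with 1 number did not deviate together (r = 0.0346 to 0.0498 within a genotype), so the numbers were not taken as pairs. With the replicate number as a block, 1 member was called by genotype under DMSO and 0 pathway genes in the interaction, which was also 0 with the line as a fixed block and 1 with the line as a random block. The call of Hbegf with FICZ in WT was lost with the number block (adjusted p = 0.0648), the fixed line block (0.0638) and the number block with the GC and length trend removed (0.0568), and that of Errfi1 with the last of these (0.0679). The call of Erbb2 by genotype under FICZ was lost with the number block (-0.19, adjusted p = 0.0606). With the line as a random block the Hbegf call held. Btc with FICZ in WT was -0.025 with the number block and -0.013 with the fixed line block. With the number block Egfr was 0.077 by genotype under DMSO and 0.008 with FICZ in WT, and the Tgfa interaction -0.004. With the replicate block and the GC and length trend removed together, 1882 of all genes were called with FICZ in WT and 523 in AHR KO, 3 members with FICZ in WT, 0 members with FICZ in AHR KO and by genotype under DMSO, and 0 pathway genes in the interaction. There Egfr was 0.047 by genotype under DMSO and 0.075 with FICZ in WT, Ereg 0.059 and Errfi1 0.028 with FICZ in AHR KO.

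Leaving out each library in turn, all genes called ranged from 1990 to 4133 with FICZ in WT, 420 to 2961 in AHR KO, 23 to 78 in the interaction, 389 to 1465 by genotype under DMSO and 1312 to 3084 under FICZ. Members called ranged from 4 to 5, 0 to 2, 1 to 1, 0 to 4 and 4 to 7 in the same order, and pathway genes from 11 to 21, 2 to 14, 0 to 2, 1 to 10 and 10 to 24. Directions turned within these ranges for Btc with FICZ in WT (-0.084 to 0.164), Egfr with FICZ in WT (-0.222 to 0.079), in AHR KO (-0.127 to 0.227), in the interaction (-0.298 to 0.056), by genotype under DMSO (-0.258 to 0.096) and under FICZ (-0.017 to 0.084), Errfi1 by genotype under DMSO (-0.049 to 0.109), Hbegf with FICZ in AHR KO (-0.091 to 0.035) and the Tgfa interaction (-0.042 to 0.050). None of these was called.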
